A study of Mus musculus with 24 samples.

Results

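The genes described here are 7 mouse genes of MHC class II antigen presentation, namely Ciita, Cd74, H2-Aa, H2-Ab1, H2-Eb1, H2-DMa and H2-DMb1. They were chosen by name, and all 7 have a row among the 14557 gene symbols listed for the epithelial libraries. Of a gene's listed transcripts, the most counted on average across the 12 libraries stands for the gene and is called its representative below. All 7 were among the 13759 genes that passed the filter on low counts.

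The libraries came from lung organoids grown in Matrigel from 200000 EpCAM+ primary lung cells and 200000 CCL206 cells, a mouse lung fibroblast line, per well. The donors were 4 wild-type female C57BL6 mice, and every mouse gave 1 library to each group, numbered 1 to 4. Control wells held no fibers, and the exposed wells held 12000 or 30000 nylon 6,6 fibers (12 by 31 µm) mixed into the gel at seeding. On day 7 the epithelial fraction was recovered with anti-EpCAM beads and 300 ng of total RNA was taken for each library, 4 per group. All groups share the fibroblast co-culture and the bead selection, so fibroblast RNA can be carried into every epithelial library.

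MHC class II molecules are pairs of an alpha and a beta chain that present peptides from the endosomes to CD4+ T cells. They are best known from dendritic cells, macrophages and B cells, but alveolar type 2 cells, the surfactant-making cells of the alveolus, carry them at rest as well. Ciita encodes the transactivator that the promoters of the other genes depend on; it does not bind DNA itself but is recruited by RFX, CREB and NF-Y proteins sitting on the X and Y boxes. H2-Aa and H2-Ab1 encode the alpha and beta chains of I-A, the class II molecule of C57BL/6 mice, and H2-Eb1 the beta chain of I-E. C57BL/6 mice lack a working alpha chain gene for I-E. Cd74 encodes the invariant chain, which fills the peptide groove until proteases cut it back, and H2-DMa with H2-DMb1 encodes the H2-M chaperone that exchanges the remaining fragment for peptide.

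In mm10, Ciita lies on chromosome 16 (10480059 to 10528418, plus strand). Cd74 lies on another chromosome, and the remaining genes lie in the MHC on chromosome 17, in the order H2-DMa (34119541 to 34139101), H2-DMb1 (34153072 to 34160230), H2-Ab1 (34257689 to 34269419), H2-Aa (34282744 to 34287823) and H2-Eb1 (34305867 to 34316674). All of those on chromosome 17 are on the plus strand except H2-Aa. H2-DMb1 and H2-Eb1 have the close relatives H2-DMb2 and H2-Eb2 beside them. No source used here says how the counting treated reads that fit both relatives, so values of these genes are uncertain to that extent.

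Because Ciita acts through the promoter boxes, the RefSeq promoter windows (GRCm38.p6, 250 bases before to 50 after the start) were searched on both strands for TGATTGG (Y box core), AACNGATG (X box core) and TGACGTCA (the CREB element that serves as X2 box). The stretches of H2-Aa, H2-Eb1 and H2-Eb2 are shown because each holds a Y box core with another of these boxes 16 or 20 bases upstream; capitals mark the matches. H2-Aa is chr17:34287859-34287933 on the minus strand, H2-Eb1 is chr17:34305757-34305831 and H2-Eb2 is chr17:34325525-34325599, both on the plus strand.
H2-Aa: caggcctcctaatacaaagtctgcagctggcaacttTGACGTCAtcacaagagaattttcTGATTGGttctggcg
H2-Eb1: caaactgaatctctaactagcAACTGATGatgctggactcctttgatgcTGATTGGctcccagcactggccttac
H2-Eb2: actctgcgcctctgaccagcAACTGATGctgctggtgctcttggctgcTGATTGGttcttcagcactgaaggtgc

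In H2-Eb1 and H2-Eb2, 20 bases separate the X box core from the Y box core. The H2-DMb1 and H2-DMb2 windows, not printed, held the same motifs 21 bases apart. In H2-Aa 16 bases lie between the CREB element and the Y box core. The windows of H2-Oa and H2-Ob, other class II chain genes, held the Y box core only. No matches overlapped each other. Of all 32851 promoter windows, 7.82% held the Y box core, 2.32% the X box core, 1.79% the CREB element, and 0.186% both the Y and the X box core. The 2 windows of H2-DMa held none of these letters. Ciita, Cd74 and H2-Ab1 had no window in the table.

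The 30000-fiber libraries stood apart from the rest in depth and make-up. Their transcript counts summed to 6767842 to 9234052 per library, against 20103389 to 31119155 at 12000 fibers and 21222034 to 28232472 in controls. Mitochondrial genes took 14.3% to 16.3% of their counts on representative transcripts, against 5.33% to 6.91% at 12000 fibers and 5.20% to 7.77% in controls. All 4 libraries at 30000 fibers share both features, so these cannot be told apart from the fiber number.

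Among the controls the class II genes differed widely between mice. Mouse 1 was the lowest and mouse 3 the highest control library for all 7 genes. Cd74 (chromosome 18, 60803848 to 60812652, plus strand), the most abundant of them, read 303, 431, 648 and 491 CPM (counts per 1000000, after TMM scaling) in control mice 1 to 4, then 915, 945, 704 and 710 CPM at 12000 fibers and 812, 684, 687 and 766 CPM at 30000 fibers. Every fiber library was above every control library. The I-A alpha chain gene H2-Aa read 40.4, 54.1, 112 and 76.3 CPM in controls, 149, 139, 114 and 106 CPM at 12000 fibers and 179, 115, 129 and 141 CPM at 30000 fibers. Only mouse 3 among the controls reached the 12000-fiber range, and none reached the 30000-fiber range. Its partner H2-Ab1 read 58.9, 82.1, 152 and 91.9 CPM in controls, 156, 173, 135 and 144 CPM at 12000 fibers and 129, 97.0, 98.9 and 114 CPM at 30000 fibers. Control mouse 3 lay inside the 12000-fiber range and above all 4 libraries at 30000 fibers.

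H2-Eb1, the I-E beta chain gene, read 36.2, 51.6, 97.7 and 63.3 CPM in controls, 118, 118, 96.5 and 90.3 CPM at 12000 fibers and 95.2, 58.2, 70.9 and 70.5 CPM at 30000 fibers. Its order of groups was that of H2-Ab1. The H2-M alpha chain gene H2-DMa read 6.13, 9.73, 18.5 and 11.2 CPM in controls, 16.1, 14.5, 13.7 and 15.1 CPM at 12000 fibers and 23.1, 20.1, 17.4 and 24.4 CPM at 30000 fibers. The H2-M beta chain gene H2-DMb1 read 10.3, 19.0, 25.0 and 19.9 CPM in controls, 34.4, 44.9, 30.3 and 29.3 CPM at 12000 fibers and 40.4, 23.6, 22.7 and 33.1 CPM at 30000 fibers. All H2-DMa values at 30000 fibers lay above those at 12000 fibers, with control mouse 3 inside the 30000-fiber range, whereas H2-DMb1 overlapped between the fiber groups. Ciita read 12.2, 17.3, 32.2 and 19.0 CPM in controls, 36.9, 40.5, 29.3 and 36.3 CPM at 12000 fibers and 17.6, 15.2, 13.8 and 17.0 CPM at 30000 fibers. These last values rest on 43 to 51 counts per library, and they lie below all 4 libraries at 12000 fibers.

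**Figure D1:**
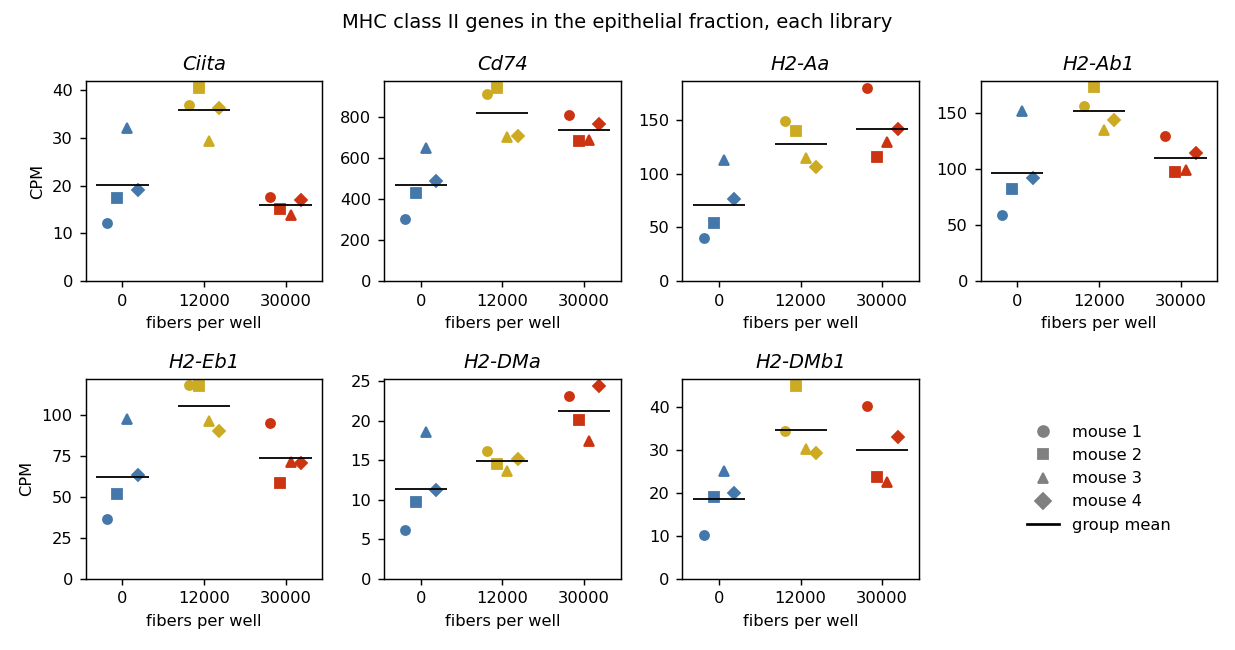
CPM of the 7 class II genes in each epithelial library (y axes, linear, starting at 0) against fibers per well (0 is control); marker shapes give the mouse and bars the group mean (n = 4). Control mouse 3 is the highest control in every panel, at 648 CPM for Cd74 and 32.2 CPM for Ciita. The 30000-fiber libraries of Ciita, at 13.8 to 17.6 CPM, lie inside the control range, as do those of H2-Ab1 and H2-Eb1.

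Per kilobase of transcript, Cd74 stood first in every group, at 332 ± 101 CPM per kb in controls, 580 ± 91.7 at 12000 fibers and 523 ± 44.3 at 30000 fibers (SD, n = 4 each). The I-A chains followed, with H2-Ab1 at 79.3 ± 32.5, 125 ± 13.6 and 90.6 ± 12.4 CPM per kb and H2-Aa at 62.8 ± 27.9, 113 ± 17.9 and 125 ± 24.3 in the same order of groups. These neighbours lay within each other's SD in controls and at 12000 fibers, and H2-Aa stood above H2-Ab1 at 30000 fibers. H2-Eb1 (37.3 ± 15.7, 63.3 ± 8.57 and 44.2 ± 9.28) ranked below them. H2-DMb1 (13.2 ± 4.35, 24.7 ± 5.08 and 21.3 ± 5.97) and H2-DMa (6.88 ± 3.13, 8.97 ± 0.628 and 12.8 ± 1.90) ranked lower again. Ciita came last, at 3.36 ± 1.42, 5.95 ± 0.782 and 2.65 ± 0.290 CPM per kb.

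With 12000 fibers against control, 5 of the 7 genes rose and none fell (edgeR quasi-likelihood, Benjamini-Hochberg adjusted p under 0.05). Of all 13759 tested genes, 38.0% passed that test, 18.7% higher and 19.3% lower. The 5 were H2-DMb1 (log2 change 0.91 ± 0.25 SE, adjusted p = 0.0134), H2-Aa (0.85 ± 0.28, 0.0381), Ciita (0.84 ± 0.22, 0.0106), Cd74 (0.81 ± 0.20, 0.00917) and H2-Eb1 (0.77 ± 0.26, 0.0428). H2-Ab1 had a log2 change of 0.67 ± 0.24 (adjusted p = 0.0542) and H2-DMa of 0.41 ± 0.23 (adjusted p = 0.194). The median over the 7 genes was 0.81 and that over all tested genes -0.0026. For 2 of the 7, Cd74 and H2-DMb1, the 12000-fiber and control libraries did not overlap, against 36.3% of all tested genes (17.6% higher, 18.7% lower).

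Since the same mice gave both groups, the fit was repeated with the mouse as a block. Ciita (adjusted p = 0.0283), Cd74 (0.0364) and H2-DMb1 (0.0446) passed that fit too. H2-Aa (log2 0.88, adjusted p = 0.0764) and H2-Eb1 (0.80, 0.0757) did not. Control mouse 3 decided much of this count. Without it all 7 genes were called higher, with a median of 1.07, H2-Ab1 at 0.97 (adjusted p = 1.0e-04) and H2-DMa at 0.71 (0.00137). Without control mouse 1, 2 or 4, 12000-fiber mouse 1, 2 or 3, or 30000-fiber mouse 4, the count was 3 in each case, namely Ciita, Cd74 and H2-DMb1. The same 3 passed in a fit of these 2 groups alone. H2-Eb1 lost its call without 12000-fiber mouse 4 or 30000-fiber mouse 3 and with its second highest transcript (adjusted p = 0.0514), and H2-Aa with a length trend removed (0.0520).

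**Figure D2:**
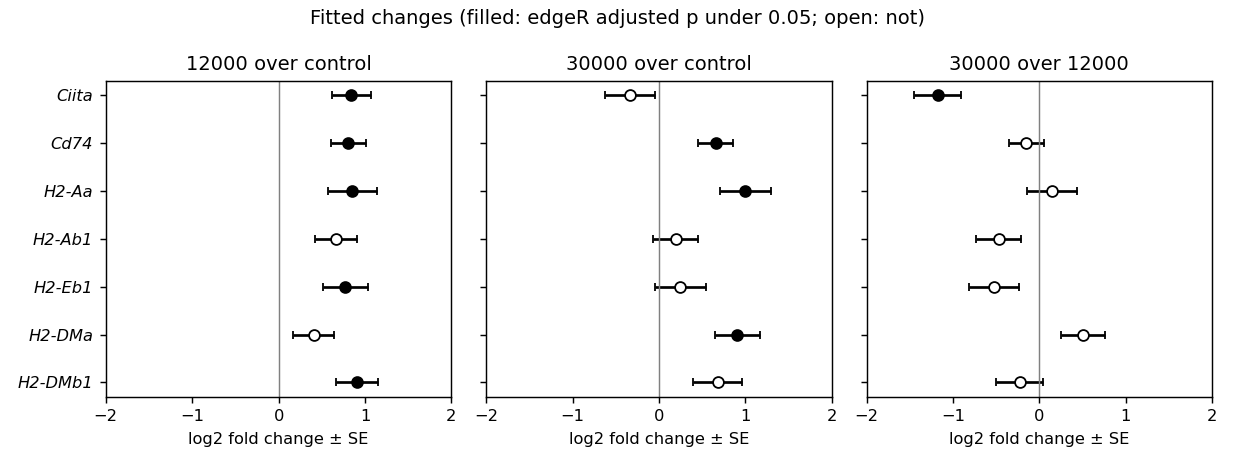
Fitted log2 fold changes of the 7 genes with their standard errors (x axes) in the 3 comparisons, 4 libraries a group; filled points passed the edgeR test and open points did not. All 7 points lie right of 0 in the left panel (median 0.81), while in the right panel only Ciita (-1.18) is filled.

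With 30000 fibers against control, 3 of the 7 genes rose and none fell, where 65.6% of all tested genes passed the test (32.2% higher, 33.4% lower). They were H2-Aa (log2 change 1.00 ± 0.30 SE, adjusted p = 0.0135), H2-DMa (0.91 ± 0.26, 0.00683) and Cd74 (0.66 ± 0.20, 0.0149). H2-DMb1 had 0.68 ± 0.28 (adjusted p = 0.0543), H2-Eb1 0.25 ± 0.29 (0.481), H2-Ab1 0.19 ± 0.26 (0.533) and Ciita -0.33 ± 0.29 (0.322). Groups did not overlap for Cd74 and H2-Aa, 2 of 7, against 58.1% of all tested genes (28.7% higher, 29.4% lower). Without control mouse 3 the count was 6, with H2-Ab1, H2-Eb1 and H2-DMb1 added. Without 12000-fiber mouse 2 or 30000-fiber mouse 3 it was 4, with H2-DMb1 added.

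With 30000 against 12000 fibers, Ciita fell by 1.18 ± 0.27 on the log2 scale (adjusted p = 0.00298) and no other class II gene was called, where 55.4% of all tested genes passed (28.3% higher, 27.1% lower). Ciita passed this test under each of the 23 other settings tried, with values between -1.92 and -1.01. H2-Eb1 had a log2 change of -0.53 ± 0.29 (adjusted p = 0.145), H2-Ab1 of -0.47 ± 0.26 (0.146), H2-DMb1 of -0.23 ± 0.27 (0.493) and Cd74 of -0.15 ± 0.20 (0.547). H2-Aa stood at 0.14 ± 0.29 (adjusted p = 0.700) and H2-DMa at 0.50 ± 0.25 (0.108). In a fit of these 2 groups alone, which leaves out the spread of the controls, H2-Ab1 (adjusted p = 0.000305), H2-Eb1 (0.00938) and H2-DMa (0.00163) passed as well. The same 3 genes were added without control mouse 3, and H2-DMa alone without control mouse 1. Libraries of the 2 groups did not overlap for Ciita, H2-Ab1 and H2-DMa, 3 of 7, against 52.3% of all tested genes (26.7% higher, 25.6% lower).

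The 3 comparisons share libraries, so their values are given side by side and not correlated. Within groups the class II genes moved closely together across mice. After each group's mean was taken away, Pearson r between pairs of the 7 genes ran from 0.804 (H2-DMa with H2-DMb1) to 0.988 (H2-Aa with H2-Eb1) over the 12 libraries. These points share library, depth and cell mixture, so the values are a description. The spread behind them was largest in controls. The mean log2(CPM + 1) over the 7 genes had an SD of 0.549 there, against 0.173 at 12000 fibers and 0.215 at 30000 fibers. Pairs of other genes were not correlated in this way, so these r values have no background. Over the 12 libraries with group means left in, r was 0.98 for H2-Ab1 with H2-Eb1 but 0.181 for Ciita with H2-DMa.

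Ratios between partner genes within a library cancel what moves both alike. They used the representatives and were not repeated with other transcripts. The representative of H2-Aa held 58.6% of that gene's listed transcript counts at 30000 fibers, against 39.5% in controls. For H2-Ab1 the shares were 30.0% and 22.7%, so this unequal shift does not cancel. The log2 ratio of Ciita to H2-Ab1 was almost the same in all controls (-2.19, -2.18, -2.20 and -2.21 for mice 1 to 4), although the level of Ciita itself spanned 12.2 to 32.2 CPM there. It was -2.06 ± 0.0828 at 12000 fibers, against -2.20 ± 0.0142 in controls (SD, n = 4 each), and the groups did not overlap (exact permutation test, 2-sided p = 0.0286, the smallest possible; adjusted over 15 ratios, 0.0476). At 30000 fibers it was -2.71 ± 0.0899, also apart from both other groups with the same p. The log2 ratio of H2-Aa to H2-Ab1 was 0.35 ± 0.0950 at 30000 fibers, against -0.26 ± 0.153 at 12000 fibers and -0.45 ± 0.144 in controls. Only at 30000 fibers did the representative of H2-Aa exceed that of H2-Ab1 in every library. In all, 9 of the 15 ratio comparisons had groups apart and passed (exact permutation tests, adjusted p = 0.0476). Ratios of other gene pairs were not tested, so this count has no background share. All 9 sit at the smallest possible p, so each pass depends on how many ratios reached it. Most ratios have H2-Ab1 as denominator and the comparisons share libraries, so the 9 are not independent. Single genes had groups apart in 36.3% of cases at 12000 fibers against control and 58.1% at 30000 fibers against control. Between the fiber groups the share was 52.3%. The ratio of H2-Eb1 to H2-Ab1 passed in none of its 3 comparisons, with differences of 0.10, 0.04 and -0.06. The 12000-fiber value of H2-DMa over H2-DMb1 was -1.15 ± 0.284, against -0.69 ± 0.205 in controls, one of the passing comparisons.

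The choice of transcript turned directions at 30000 fibers and moved calls near the threshold at 12000 fibers, where H2-Ab1 passed with all transcripts summed (0.68, adjusted p = 0.0388) and with the second most counted one (0.74, 0.0434). The 7 genes have 36 listed transcripts, which overlap and share reads. Of the counts on all listed transcripts of H2-Aa, its representative held 58.6% ± 3.61 at 30000 fibers, against 38.9% ± 0.334 at 12000 fibers and 39.5% ± 0.348 in controls (SD, n = 4 each). For H2-DMb1 the share was 72.6% ± 1.49 at 30000 fibers, against 60.2% ± 0.541 at 12000 fibers and 59.1% ± 0.563 in controls. All 7 genes had a higher share at 30000 fibers than in either other group, in all 4 libraries (exact permutation tests, 2-sided, adjusted p = 0.0429 over 21). Shares of other genes were not computed, so this count has no background over all tested genes. None of the 7 passed between 12000 fibers and control.

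The representative of every gene reaches the annotated 3′ end of the gene to within 6 bases. With 30000 fibers against control, the 15 transcripts that end within 300 bases of the gene's 3′ end had a median log2 ratio of mean CPM + 1 of 0.65 (-0.32 to 1.03). The 21 that stop farther short had a median of -0.60 (-1.73 to 0.26). With 12000 fibers against control the same classes had medians of 0.75 and 0.80, and all 36 transcripts were above 0. The boundary of 300 bases was set after the values were seen. Over all tested genes, the medians at 30000 fibers were -0.053 for 25983 transcripts near the 3′ end and -0.55 for 43442 farther from it, and -0.0065 and 0.013 at 12000 fibers. The lower counts away from the 3′ end at 30000 fibers were thus seen over the whole libraries.

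The values of single transcripts show the extent. The H2-Ab1 representative averaged 110 CPM at 30000 fibers, against 96.1 CPM in controls. A retained-intron transcript of H2-Ab1 that ends 1263 bases short averaged 40.3 CPM at 30000 fibers, against 75.7 CPM in controls. For Cd74, a retained-intron transcript ending 3399 bases short averaged 24.3 CPM at 30000 fibers, against 82.8 CPM in controls, while its representative averaged 737 CPM at 30000 fibers, against 468 CPM in controls. When the transcript with the second highest mean stood for each gene, H2-Aa changed by -0.05 (adjusted p = 0.896) in place of 1.00 at 30000 fibers (0.57, adjusted p = 0.0919, with all transcripts summed), while Cd74 (0.96, 0.00185) and H2-DMa (adjusted p = 0.00257) passed. Distance from the 3′ end did not order every transcript. The second transcript of H2-Aa ends 21 bases from it, yet its log2 ratio of mean CPM + 1 was -0.24. That of H2-DMb1, 129 bases short, stood at -0.30, and 2 H2-Eb1 transcripts ending 475 bases short at 0.25 and 0.26. Of the 15 transcripts within 300 bases 12 were above 0, and of the 21 others 6. With a trend on transcript length removed, H2-DMa passed at 30000 fibers (0.65, adjusted p = 0.0466). Cd74 (0.24, 0.339) and H2-Aa (0.32, 0.387) did not. For Ciita, all 7 listed transcripts were lower at 30000 fibers than in controls, with log2 ratios of mean CPM + 1 from -0.67 to -0.32. All but its representative end 1992 to 24525 bases short, and over all tested genes such transcripts had a median of -0.55. With the length trend removed, the edgeR change of Ciita against control was -0.14 (adjusted p = 0.679). Its transcripts share most of their counts, so its alternative promoters cannot be separated here.

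**Figure D3:**
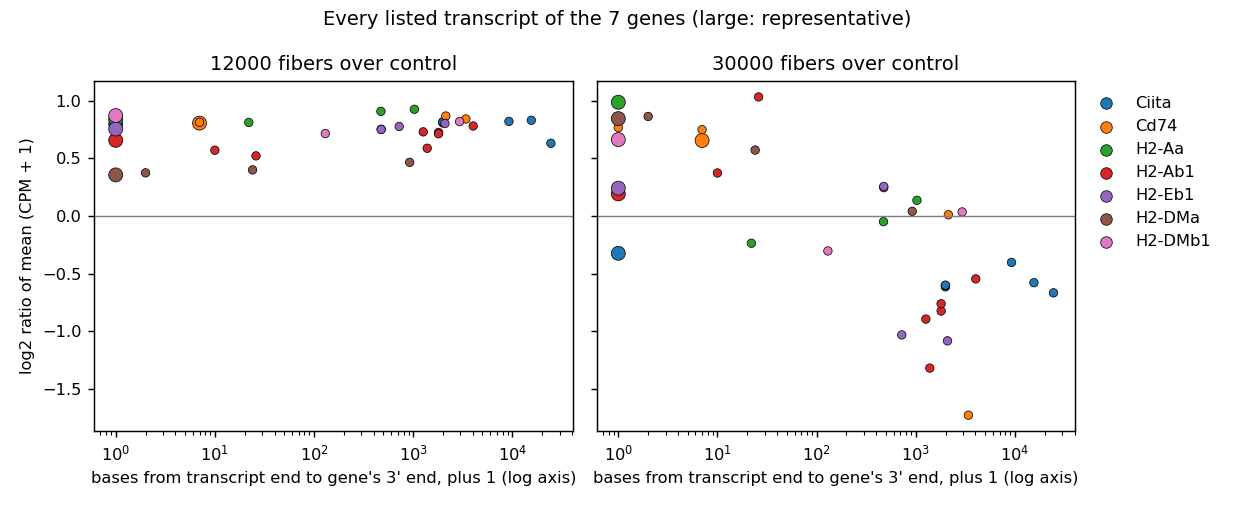
Log2 ratio of group mean CPM + 1 for each of the 36 listed transcripts of the 7 genes (y axes) against the distance from the transcript's end to the gene's 3′ end (x axes, log scale, plus 1 base); large points are the representatives. All points are above 0 in the 12000-fiber panel, while at 30000 fibers the transcripts ending more than 300 bases short have a median of -0.60 and those nearer one of 0.65.

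As a feature of alveolar type 2 cells, the class II genes were set against 30 tested type 2 cell genes. Of these, 8 were higher and 2 lower at 12000 fibers (median 0.42), and 13 higher and 8 lower at 30000 fibers (median 0.38). Among all tested genes, 18.7% were higher and 19.3% lower at 12000 fibers, and 32.2% higher and 33.4% lower at 30000 fibers. Every list count below has these shares as its background, and counts near them say little about a list. Sftpc, the surfactant protein C gene, read 913, 2096, 2086 and 1587 CPM in controls, 3059, 3815, 2032 and 2361 CPM at 12000 fibers and 3994, 4204, 2802 and 3394 CPM at 30000 fibers. Its change was 0.75 ± 0.29 (adjusted p = 0.0643) at 12000 fibers and 1.11 ± 0.29 (0.00675) at 30000 fibers. Lamp3, a lamellar body and lysosome membrane gene, changed by 0.67 ± 0.27 (adjusted p = 0.0778) and 0.84 ± 0.28 (0.0229). Sftpa1, the surfactant protein A gene, rose by 1.22 ± 0.42 (adjusted p = 0.0431) and 2.84 ± 0.42 (0.000177). The list gene with the smallest p in both comparisons with control, Il33, went the other way. It averaged 19.6 ± 2.51 CPM at 12000 fibers and 20.3 ± 3.68 CPM at 30000 fibers, against 95.8 ± 22.3 CPM in controls. Nkx2-1, a lung lineage factor, fell by 0.73 ± 0.10 (5.84e-06) at 30000 fibers, as did Cebpa, by 1.79 ± 0.20 (6.27e-06).

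The ratio of each class II gene to the mean log2 level of those 30 genes gave no difference past the threshold in 21 comparisons (exact permutation tests, lowest adjusted p = 0.0857). That adjusted value already belongs to ratios at the smallest p these tests can give. A pass over 21 comparisons would need more ratios at that p, so the lack of one does not show that the class II genes followed the list. Ratios of other genes to that list were not tested, so the next count has no background share. At an unadjusted p of 0.0286, the smallest possible, 7 of the 21 had groups apart. Among them, Cd74 stood at 2.03 ± 0.153 at 12000 fibers, against 1.54 ± 0.196 in controls, and H2-DMb1 at -2.49 ± 0.130, against -3.05 ± 0.245 (log2 ratio, SD, n = 4 each). Ciita stood at -3.62 ± 0.0775 at 30000 fibers, against -2.44 ± 0.0851 at 12000 fibers and -2.96 ± 0.324 in controls. With the type 2 level as a covariate in the fit, Cd74 (log2 0.46, adjusted p = 0.00601), Ciita (0.41, 0.0484) and H2-DMb1 (0.39, 0.0292) were higher at 12000 fibers. At 30000 fibers that fit called no class II gene higher and Ciita lower (-0.83, 0.0007).

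Markers of other cells moved in the same libraries, and in bulk samples fewer cells of a type and less RNA per cell cannot be told apart. At 12000 fibers, 24 of 25 genes that mark fibroblasts were higher and none lower (median 1.05), as were 23 at 30000 fibers, with 1 lower (median 1.70). Their mean log2(CPM + 1) was 5.01, 5.66, 6.31 and 5.79 in control mice 1 to 4, 6.59 to 6.79 at 12000 fibers and 7.36 to 7.66 at 30000 fibers. Control mouse 1 was the lowest and mouse 3 the highest, as for the class II genes, whose mean was 4.97, 5.51, 6.30 and 5.73 in the same libraries. The type 2 list (6.90, 7.29, 7.53 and 7.40) and the leukocyte list (2.34, 2.38, 2.74 and 2.65) had that order of controls too. The basal cell list ran the other way, with mouse 1 the highest control (7.72) and mouse 3 the lowest (6.94). With the fibroblast level as a covariate, none of the 7 genes was called at 12000 fibers (Cd74 0.13, Ciita -0.06, H2-DMb1 0.24), and at 30000 fibers none was called higher while Ciita (-1.98, adjusted p = 0.000407) and H2-Ab1 (-1.33, 0.0340) were called lower. That covariate follows the groups closely, so a fiber effect and the cell mixture cannot be told apart in it.

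Most genes of the airway cell lists were lower in the fiber libraries. Of 14 basal cell genes, 13 were lower and none higher at 12000 fibers (median -3.65). Of 15 club and secretory genes, 14 were lower (median -4.61), and of 17 ciliated cell genes, 16 were lower (median -1.38). At 30000 fibers, 13 basal genes were lower and 1 higher (median -4.42), 14 club and secretory genes were lower and 1 higher (median -4.48), and 12 ciliated genes were lower and none higher (median -1.36). The exception among the club genes was Scgb1a1, the club cell secretory protein gene, which averaged 11.5 ± 5.10 CPM in controls, 19.9 ± 6.94 CPM at 12000 fibers and 209.9 ± 25.0 CPM at 30000 fibers (SD, n = 4 each). It rose by 4.15 ± 0.30 (adjusted p = 7.75e-07) with 30000 fibers against control. Epcam, the gene whose protein the beads capture, read 604 to 743 CPM in controls, 468 to 497 CPM at 12000 fibers and 185 to 262 CPM at 30000 fibers. The part of these shifts in the class II result was not tested beyond the covariate fits.

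Leukocytes, the usual carriers of class II, were checked with a list of 39 genes, of which 11 had a row and 9 were tested. Ptprc, the pan-leukocyte gene, had no row, nor had Itgax, Itgam, Adgre1, Ms4a1, Flt3, Spi1 or Tyrobp. A listed transcript had at least 60 counts over the 12 libraries, so such genes have no value here. The summed level of the 9 tested genes was 112 to 154 CPM in controls, 196 to 230 CPM at 12000 fibers and 194 to 234 CPM at 30000 fibers. Lcp1, an actin-bundling protein gene, made up the larger share of that sum, at 80.2 to 109 CPM in controls, 145 to 180 CPM at 12000 fibers and 98.1 to 135 CPM at 30000 fibers. Of the 9, 5 were higher at 12000 fibers (Lcp1, Itgb2, Cd53, Csf1r and Zbtb46) and 4 at 30000 fibers. Itgb2, the beta-2 integrin gene, read 4.63, 6.23, 11.5 and 9.31 CPM in controls, 14.6 to 17.6 CPM at 12000 fibers and 30.4 to 47.3 CPM at 30000 fibers. The tetraspanin gene Cd53 averaged 1.15 ± 0.300, 2.55 ± 0.567 and 9.00 ± 2.52 CPM in the same order of groups. The part of these genes in the class II result was not tested.

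**Figure D4:**
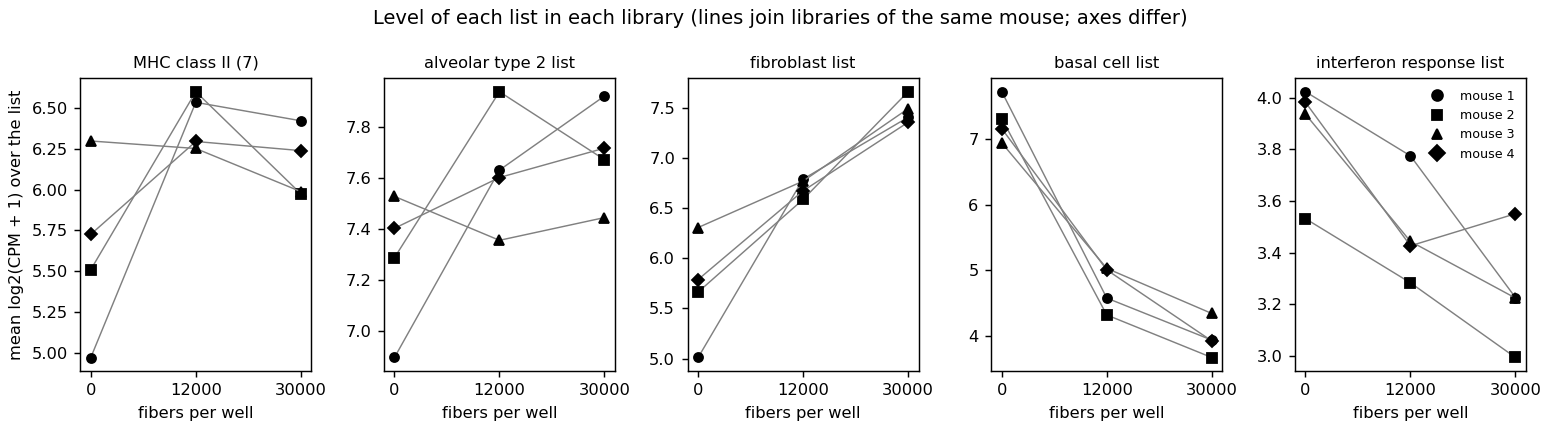
Mean log2(CPM + 1) over each gene list in each library (y axes, which differ between panels) against fibers per well, with lines joining libraries of the same mouse. The class II level of mouse 3 was 6.30 in its control and 6.25 at 12000 fibers, whereas that of mouse 1 was 4.97 in its control and 6.54 at 12000 fibers; the type 2 and fibroblast panels show the same order of controls.

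The remaining genes of the pathway did not move as a block. H2-Eb2, a second E beta chain gene, rose with 12000 fibers against control (1.01 ± 0.31, adjusted p = 0.0142) and fell with 30000 against 12000 fibers (-1.03 ± 0.40, 0.0370), at 1.27 to 5.47 CPM in all libraries. H2-DMb2 did not pass in any comparison, and H2-Oa, H2-Ob and H2-Ea had no row. Of 9 genes for factors at class II promoters, none was higher and 4 lower at 12000 fibers (median -0.15), and 1 was higher and 5 lower at 30000 fibers (median -0.21). Lower genes made up 19.3% and 33.4% of all tested genes in the same comparisons. Rfx5 and Rfxap, subunits of the RFX complex, changed by -0.06 ± 0.07 (adjusted p = 0.580) and 0.04 ± 0.10 (0.806) at 12000 fibers. Nfyc, an NF-Y subunit gene, fell at 12000 fibers (-0.35 ± 0.10, 0.00895) and rose at 30000 fibers (0.33 ± 0.11, 0.0103). The coactivator genes Crebbp (-0.29 ± 0.06 and -0.21 ± 0.07) and Kat2b (-0.26 ± 0.09 and -0.64 ± 0.10) fell at both fiber numbers.

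Interferon gamma is the classical inducer of Ciita outside leukocytes. Of 10 tested genes of that route, none was higher and 4 lower at 12000 fibers, and 1 was higher and 5 lower at 30000 fibers. Among all tested genes, 19.3% were lower at 12000 fibers and 33.4% at 30000 fibers. Ifngr1, a chain of the interferon gamma receptor, read 116 to 133 CPM in controls, 83.8 to 90.9 CPM at 12000 fibers and 57.1 to 74.8 CPM at 30000 fibers, with no overlap between groups. It fell by 0.50 ± 0.07 (adjusted p = 1.82e-05) and 0.91 ± 0.08 (5.92e-09). Irf1, a transcription factor gene that interferon gamma induces, fell by 0.33 ± 0.08 (0.00200) and 0.40 ± 0.09 (0.000356). Of 36 interferon response genes, 2 were higher and 13 lower at 12000 fibers (median -0.27), and 2 higher and 21 lower at 30000 fibers (median -0.70).

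Of 10 tested genes that process antigen and the invariant chain, 7 were higher and none lower at 12000 fibers (median 0.40), where 18.7% of all tested genes were higher. At 30000 fibers 9 were higher and none lower (median 0.68), where 32.2% of all tested genes were higher. Ifi30, the lysosomal thiol reductase that opens disulfide bonds of antigens, read 9.25 to 12.8 CPM in controls, 14.4 to 19.5 CPM at 12000 fibers and 40.1 to 45.0 CPM at 30000 fibers. Its log2 changes were 0.71 ± 0.12 (adjusted p = 9.61e-05) and 1.99 ± 0.12 (2.62e-11). The cathepsin genes Ctsb (0.56 ± 0.11 and 1.07 ± 0.11), Ctsz (0.74 ± 0.09 and 0.67 ± 0.09) and Ctsh (0.48 ± 0.10 and 0.66 ± 0.10) rose at both fiber numbers. Ctss, the cathepsin known for the last cut of the invariant chain in leukocytes, had no row. Of 9 turnover and trafficking genes, 4 were higher and 1 lower at 12000 fibers and 4 higher and 4 lower at 30000 fibers. Cd63, a tetraspanin of late endosomes, rose by 0.68 ± 0.08 and 2.05 ± 0.08, and Sppl2a, the protease that clears the last Cd74 fragment, fell by 0.41 ± 0.06 and 0.23 ± 0.07. The representatives of Ifi30 (980 bases) and Cd63 (1109 bases) are shorter than that of Cd74 (1410 bases). The Cd74 change at 30000 fibers was smaller with the length trend removed, a setting not examined for Ifi30 or Cd63.

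Of 6 tested costimulatory and checkpoint ligands, 2 were higher and 3 lower at 12000 fibers, and 3 were higher and 2 lower at 30000 fibers. Cd276, which encodes B7-H3, averaged 152 ± 8.23 CPM at 12000 fibers and 147 ± 1.88 CPM at 30000 fibers, against 117 ± 10.3 CPM in controls (log2 0.39 ± 0.07 and 0.34 ± 0.07). Cd274, which encodes PD-L1, averaged 7.33 ± 0.992 CPM at 12000 fibers and 6.05 ± 1.26 CPM at 30000 fibers, against 3.88 ± 1.26 CPM in controls (log2 0.93 ± 0.20 and 0.64 ± 0.25). Icosl fell by 1.43 ± 0.29 and 2.29 ± 0.45, and Vtcn1, which encodes the inhibitory ligand B7-H4, by 1.81 ± 0.14 and 1.84 ± 0.17. Cd80 fell at 12000 fibers (-0.79 ± 0.16) and rose at 30000 fibers (0.60 ± 0.16), and Cd86 had no row.

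MHC class I genes gave a different count. Of 22, 7 were higher and 1 lower at 12000 fibers (median 0.20), and 4 were higher and 9 lower at 30000 fibers (median -0.15). The shares over all tested genes were 18.7% higher and 19.3% lower at 12000 fibers, and 32.2% and 33.4% at 30000 fibers. Nlrc5, the class I counterpart of Ciita, rose by 0.83 ± 0.21 (adjusted p = 0.00487) and 0.87 ± 0.25 (0.00513). B2m, the light chain of class I, rose by 0.74 ± 0.11 and 2.73 ± 0.12, and Psme2, a proteasome activator subunit gene, fell by 1.52 ± 0.19 at 30000 fibers. The B2m representative is 860 bases long, and its change with the length trend removed was not examined. The difference between the class II and class I lists was not tested.

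**Figure D5:**
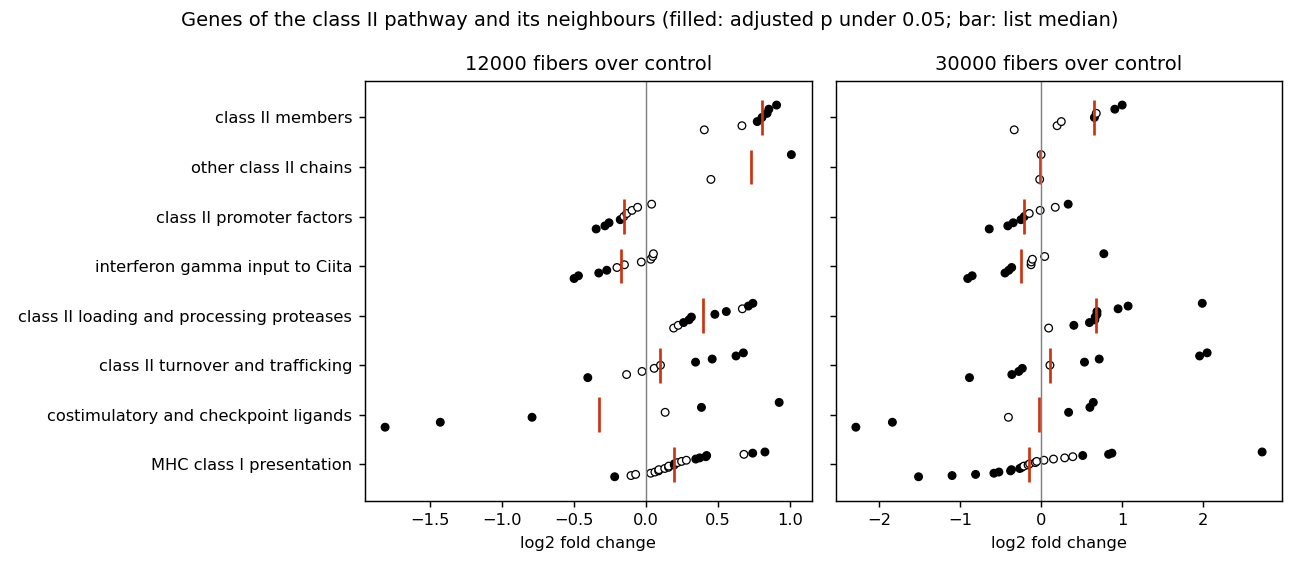
Log2 fold changes of single genes (points; filled passed the edgeR test, open did not) for the class II genes and 7 neighbouring lists, at 12000 fibers (left) and 30000 fibers (right) over control; bars are list medians. The class II median is 0.81 and 0.66, the processing genes lie at 0.40 and 0.68, and the interferon gamma route and the promoter factors have medians below 0 in both panels.

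By mean Pearson r over the 6 class II genes called in at least 1 comparison (12 libraries, 12117 genes), the genes most like them were Dpp4 (0.866), Col6a1 (0.858), Plbd1 (0.850), Egfl6 (0.850), Rnf144a (0.847), Npc2 (0.841), Slc34a2 (0.841) and Arfgef3 (0.839). Col6a1, a collagen VI chain gene, averaged 172 ± 10.8 CPM at 12000 fibers and 140 ± 18.8 CPM at 30000 fibers, against 87.3 ± 37.2 CPM in controls. Egfl6 and Slc34a2, the phosphate transporter of type 2 cells, belong to the type 2 list, and Col6a1 to fibroblasts as well as other cells. These values describe likeness over libraries that share depth and mixture.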

How the data were processed

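Counts per Ensembl transcript in 12 epithelial libraries were used as deposited by the authors. Per the submitters' processing notes, bcl2fastq, FastQC, cutadapt 1.12 and HISAT2 2.1.0 were used with mm10; the sources used here do not give the counting program or strand setting. Rows without an identifier (36733, which carry the fibroblast columns) were not analysed here. The table holds 71081 transcripts.

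Representative transcripts were tested in 1 edgeR 4.0.16 quasi-likelihood fit (R 4.3.3; TMM, filterByExpr, robust, 9 residual degrees of freedom, Benjamini-Hochberg over 13759 genes, threshold 0.05); SE is the log2 change over the root of F. CPM uses TMM-scaled totals. On simulated counts for 12000 fibers against control (13621 genes) the fit recovered 87.4% of genes changed by 1 on the log2 scale, and 78.9% for 30000 fibers against control. In that simulation 95 genes changed by 1 and 99 by 2 on the log2 scale, equally in both fiber groups. Far more genes were called in the data, so these rates may not carry over. Ratios used log2(CPM + 1) and shares used counts, with exact 2-sided permutation tests (SciPy 1.17.1), which cannot go below 0.0286. Alternatives included DESeq2 1.42.0, other normalization, filters, transcripts and covariates. Mouse numbers mark the same animal in each group, so the mouse served as a block in an alternative; deviations of same-mouse libraries correlated at -0.069 to 0.236. Annotation was GENCODE M21 and RefSeq. The class II genes and the 17 lists were chosen with earlier results of these data known. Named genes were the 7, up to 4 called genes per list and comparison by smallest p, a few fixed markers, and the 8 most alike in pattern; a few further list genes were named after their values were seen.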

Additional observations from a re-analysis of the deposited data

Results flagged for a closer look

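Of 78 groups of 4 libraries checked for a library far from the others (Dixon's test at the 95% level, which flags about 1 in 20 by chance), 4 were marked. The log2 ratio of Ciita to the type 2 list was -2.48 in control mouse 3, against -3.18, -3.09 and -3.08 in the other controls. The share of H2-Ab1 counts on its representative was 23.05% in control mouse 1, against 22.62%, 22.62% and 22.64% in the others. That of H2-Eb1 was 23.84% in control mouse 1, against 22.81% to 22.84%. In 30000-fiber mouse 2 the H2-Eb1 share was 29.31%, against 28.29% to 28.32%.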

How the results depend on the processing

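Counts of changed genes stayed within 1.5 times except with the fibroblast level as a covariate, which left 866 genes at 12000 fibers (of 5231; 16.9% of them higher, against 49.2%) and 3208 at 30000 fibers (of 9026), and with the type 2 level, which left 3483 at 12000 fibers. Against control at 12000 fibers, the fibroblast covariate turned the direction of Ciita (-0.057), H2-Aa (-0.070), H2-Ab1 (-0.16), H2-Eb1 (-0.13) and H2-DMa (-0.63). At 30000 fibers it turned Cd74 (-0.57), H2-Aa (-0.69), H2-Ab1 (-1.33), H2-Eb1 (-1.40), H2-DMa (-0.98) and H2-DMb1 (-0.53), and against 12000 fibers H2-Aa (-0.62) and H2-DMa (-0.35). The type 2 covariate turned H2-Ab1 (-0.27) and H2-Eb1 (-0.23) at 30000 fibers against control. The second highest transcript turned H2-Aa (-0.054), H2-Ab1 (-0.71) and H2-DMb1 (-0.17) against control, and Cd74 (0.14) and H2-Aa (-0.88) against 12000 fibers. Summed transcripts turned H2-Ab1 (-0.070) against control and H2-Aa (-0.30) against 12000 fibers, and the length trend turned H2-Ab1 (-0.39) and H2-Eb1 (-0.011) against control and H2-Aa (-0.49) against 12000 fibers. The causes were not tested. With 30000 against 12000 fibers, H2-Ab1 and H2-Eb1 passed as lower with summed transcripts, with either covariate, with the length trend removed and with only these groups fitted, and H2-Ab1 with the second transcript (-1.45). Cd74 passed as lower with the fibroblast covariate (-0.70, adjusted p = 0.0102) and the length trend (-0.54, 0.0491), H2-DMb1 with the second transcript (-0.94, 0.00268) and the type 2 covariate (-0.31, 0.0295), and H2-Aa with the second transcript (0.0411). H2-DMa passed as higher with the second transcript (0.70, 0.0358), the type 2 covariate (0.43, 0.0430) and only these groups fitted (0.51, 0.00163). DESeq2 called 6 of the 7 genes higher at 12000 fibers and 4 at 30000 fibers. Of the ratios to the type 2 list, 0 of 21 passed with other pseudocounts or references, under the same limit on the smallest possible p. A pseudocount of 5 turned H2-DMa at 12000 fibers (-0.017). Sftpc alone as the reference turned Cd74 (-0.46), H2-Aa (-0.094), H2-DMa (-0.24) and H2-DMb1 (-0.48) at 30000 fibers, H2-Ab1 (-0.053) and H2-DMa (-0.34) at 12000 fibers, and H2-Aa (-0.23) between the fiber groups. Lamp3 alone turned Cd74 (-0.19) and H2-DMb1 (-0.21) at 30000 fibers, H2-DMa (-0.27) at 12000 fibers and H2-Aa (-0.031) between the fiber groups. Outside these counts, 1204 values were rated unchanged, 35 moved past the threshold and 32 fell short. Unchanged meant the same side of the threshold for fitted changes and for ratios with other pseudocounts or references. For ratios and shares with a library left out or with the mouse block, it meant only a shift smaller than the pooled SD. Besides H2-Aa and H2-Eb1 at 12000 fibers, the mouse block changed no class II call; it gave 5521, 9141 and 7769 changed genes in the 3 comparisons. Paired exact tests cannot go below 0.125, so ratios and shares have no paired call. Depth limits Ciita at 30000 fibers most, with 43 to 51 counts a library.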
